A study of Mus musculus with 23 samples.

Results

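The CT2A glioma cells compared here were sorted from brain tumors of neurosphere origin (5 libraries, numbered 57 to 61) or of adherent origin (3 libraries, numbered 69 to 71), 8 of the 23 RNA sequencing libraries of the series. Members are defined by the labels, but the comparison, the members and the gene lists were chosen with earlier results of these data known. The neurosphere libraries carry CT2A in the cell line label and in the description, while their titles name GL261, the other glioma line of the study. The series profiled the syngeneic mouse glioma lines CT2A and GL261 as bulk tumors and as tumor cells sorted by magnetic beads for a surface reporter carried by the implanted cells. Both groups carry CT2A-luc as cell line label, a line with luciferase, and the titles of the adherent libraries add the surface reporter. Neither the titles nor the methods say whether the neurosphere culture came before implantation or after harvest, and the study's text calls these tumors neurosphere-derived. Cells were implanted in the striatum of young adult female albino C57BL/6 mice, and the labels name no drug or further gene edit in either group. No independent clone of the reporter line is named, so that each group stands for a single line. The labels give no batch or processing day for either group, so a batch and the culture origin cannot be told apart.

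Immediate early genes are transcribed within minutes of a growth factor, stress or calcium signal from promoters that are already occupied, through factors such as SRF and CREB, and their messenger RNAs are short-lived. Many encode transcription factors (the FOS and JUN families that form AP-1, and the EGR and KLF zinc finger factors), and others encode feedback inhibitors of the same signals. Astrocytes take up glutamate and GABA, buffer ions and carry the intermediate filament GFAP, and glioma cells often carry part of this program, while normal astrocytes also lie within and around a glioma.

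In bulk RNA, and in sorted cells that are sequenced as a pool, fewer cells of a type and less RNA per cell cannot be told apart. Depth ranged from 7395846 to 15263587 estimated reads with neurosphere origin (median 13751964) and from 8325102 to 9641749 with adherent origin (median 8985627), so that a gene at 1 CPM (the read count scaled to a common library size) rested on about 7 to 15 reads. Because of the titles, the line was checked on 768 genes that separated adherent CT2A from adherent GL261 cells by at least 3 on the log2 scale without overlap. Libraries 57, 58, 59, 60 and 61 lay nearer to adherent CT2A for 99.6%, 99.6%, 96.0%, 99.1% and 99.7% of these genes, against 2.86% to 3.39% for the GL261 neurosphere libraries. Libraries 59 and 60 stood apart within the neurosphere group. Library 59 had the highest macrophage marker level (6.99 as the mean log2(CPM + 1) of 13 markers, against 5.04 to 6.13 in the other 4) and library 60 the highest oligodendrocyte and neuron marker levels, and results are given below with and without both.

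Between the 2 origins, 44 of 13142 genes tested passed an adjusted p of 0.05 (0.335%), with 19 higher in neurosphere-derived cells (0.145%) and 25 lower (0.19%). Of the 19 genes that rose, 12 were in the early response list, and 7 of the 25 that fell were in the astrocyte list. Without a correction for the number of genes, 1012 genes were higher at p under 0.05 (7.7%) and 728 lower (5.54%). In 895 genes every neurosphere library lay above every adherent library (6.81%), and in 747 every one lay below (5.68%). The count of calls was unstable: it was 0 without adherent library 70 or 71 or neurosphere library 57 or 61, 188 without library 60, 246 without libraries 59 and 60, and 302 with DESeq2. The adjusted p-values of the called genes lay between 0.0247 and 0.0493.

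**Figure D1:**
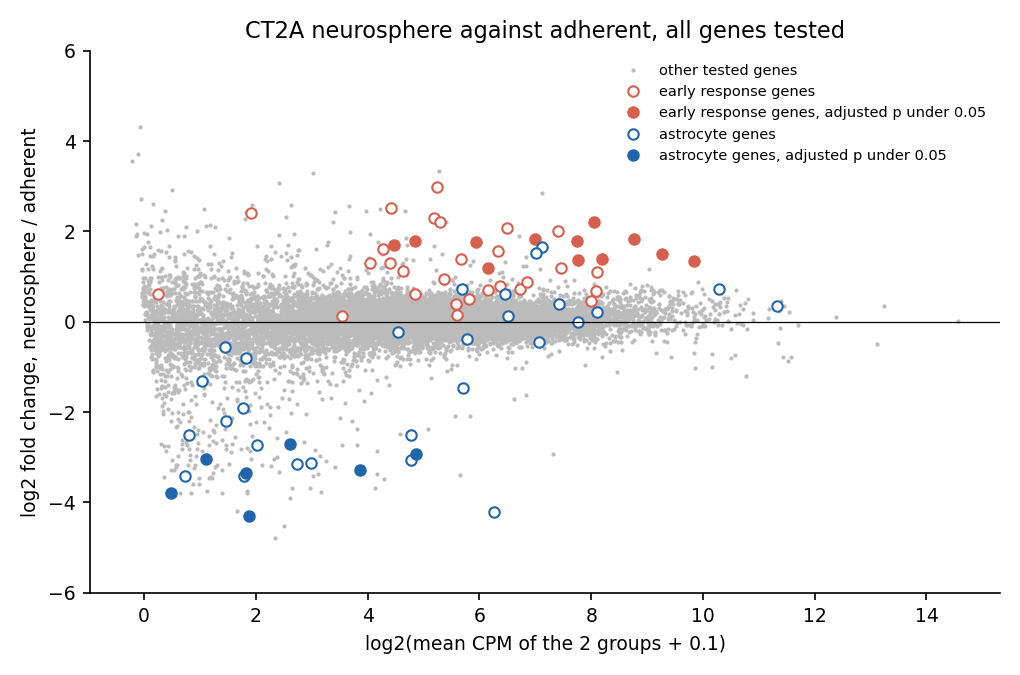
Log2 fold change (neurosphere minus adherent) of each of the 13142 tested genes against log2 of its mean CPM over the CT2A groups plus 0.1. Early response and astrocyte genes are marked, with filled points where they were called. Called genes of neither list are drawn like the other tested genes. All 40 tested early response genes lie above 0 and 26 of 35 astrocyte genes lie below it. The axis stops at 6 log2 units and 10 genes beyond it are not drawn.

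Of the 42 early response genes listed, 40 were tested, and Egr4 and Npas4 were too low. Among the 40, 12 rose and none fell by edgeR's quasi-likelihood test, against 0.145% of all tested genes that rose. All 40 fold changes were above 0 (55.1% of all genes), 33 had an unadjusted p under 0.05 (7.7% of all genes upward) and 32 had no overlap between the origins (6.81% of all genes). Their median log2 fold change was 1.36, from 0.12 to 2.99, against a median of 0.04 over all tested genes. With DESeq2 23 of the 40 were higher and none lower, where 2.3% of all genes were called in either direction. A single member of the list passed the minimum of 10 counts through the neurosphere group only.

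The AP-1 genes are described first. Values are TMM-scaled CPM, given for adherent libraries 69, 70 and 71 and then for neurosphere libraries 57, 58, 59, 60 and 61. Fos, which pairs with JUN proteins to form AP-1, was at 219, 187 and 162 and then 420, 624, 1001, 851 and 492 CPM. Every neurosphere library exceeded every adherent one, with library 59 highest and the 3 adherent libraries close together (log2 fold change 1.84, SE 0.29, adjusted p = 0.0492). Fosb, a relative of Fos that is likewise induced by stimulation, was at 124, 87.1 and 70.6 and then 315, 538, 372, 584 and 358 CPM. Its lowest neurosphere value was more than 2 times its highest adherent value (log2 fold change 2.21, SE 0.27, adjusted p = 0.0247). Jun was at 637, 485 and 429 and then 1040, 1540, 1278, 1680 and 1000 CPM. Libraries 58 and 60 were highest, and the groups did not overlap (log2 fold change 1.34, SE 0.22, adjusted p = 0.0492). Junb was at 228, 141 and 117 and then 367, 401, 516, 497 and 343 CPM, and Jund at 154, 111 and 97.7 and then 234, 404, 331, 360 and 242 CPM. For both genes library 69 was the highest adherent library and still lay below all 5 neurosphere libraries (Junb log2 fold change 1.39, SE 0.24, adjusted p = 0.0493 and Jund log2 fold change 1.37, SE 0.23, adjusted p = 0.0492). On the length-normalised TPM scale, which allows genes to be compared, mean Jun was 659 ± 217 (SD, n = 5) in neurosphere-derived cells, Fos 572 ± 215, Junb 391 ± 88.2, Jund 321 ± 106 and Fosb 199 ± 81.1. The neurosphere ranges of neighbours in this order overlapped. These genes were at 277 ± 47, 188 ± 21.9, 161 ± 51.5, 132 ± 26.8 and 42.7 ± 10.8 TPM (SD, n = 3) in adherent-derived cells. Fosl1 and Fosl2, AP-1 members that are induced later, were not past the threshold, at log2 fold changes of 0.50 and 0.72.

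The zinc finger factors followed. Egr1, induced by ERK signalling through SRF, was at 398, 333 and 231 and then 828, 1135, 615, 1173 and 809 CPM. Library 59 was here the lowest neurosphere library, yet above the adherent range (log2 fold change 1.51, SE 0.25, adjusted p = 0.0493). Egr2 was at 11.3, 10.8 and 8.88 and then 30.8, 26.9, 27.9, 52.6 and 29.7 CPM. Library 60 stood far above the other 4, and the groups did not overlap (log2 fold change 1.70, SE 0.25, adjusted p = 0.0426). Klf4, a factor known for its part in reprogramming, was at 63.7, 52.1 and 51.5 and then 184, 136, 281, 214 and 182 CPM. The adherent values of Klf4 lay close together, and the lowest neurosphere value, in library 58, was more than 2 times the highest of them (log2 fold change 1.84, SE 0.22, adjusted p = 0.0247). Klf6 and Klf2 were not past the threshold, at log2 fold changes of 1.11 (adjusted p = 0.114) and 1.61 (adjusted p = 0.311), and Egr3 was at 0.12. Csrnp1, a nuclear protein induced by AXIN, was at 12.9, 13 and 12.8 and then 39.8, 34, 44.8, 75.7 and 28.6 CPM. Its 3 adherent libraries were nearly equal, and library 60 was again the highest (log2 fold change 1.79, SE 0.30, adjusted p = 0.0493).

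Among the feedback regulators, Zfp36, the tristetraprolin protein that destabilises AU-rich messenger RNAs, was at 111, 95 and 86.6 and then 224, 315, 539, 368 and 226 CPM. Library 59 was highest and libraries 57 and 61 lowest of the neurosphere group, all above the adherent range (log2 fold change 1.78, SE 0.29, adjusted p = 0.0492). Ier3, an early gene linked to survival signalling, was at 37.4, 32 and 14.2 and then 105, 70.5, 92.1, 105 and 99.8 CPM. In 4 of the neurosphere libraries the values lay between 92.1 and 105 CPM, while adherent library 71 was well below its 2 companions (log2 fold change 1.76, SE 0.29, adjusted p = 0.0492). Nfkbiz, a nuclear IkB protein, was at 47.7, 37.5 and 45.4 and then 78, 108, 88.9, 141 and 82.4 CPM. Its fold change was the smallest of the 12 (log2 fold change 1.19, SE 0.21, adjusted p = 0.0493). Nfkbia, the cytoplasmic inhibitor of NF-kB, is listed with the NF-kB genes and was at 80.8, 56.2 and 48.6 and then 149, 152, 174, 233 and 125 CPM, without overlap (log2 fold change 1.43, SE 0.23, adjusted p = 0.0492).

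Several large fold changes of the list did not pass the test. Atf3, a stress-induced ATF factor, was at 8.85, 9.28 and 7.09 and then 42.9, 38.3, 41.8, 178 and 33 CPM. All 5 neurosphere libraries exceeded the adherent range, and library 60 held about 4 times the next value (log2 fold change 2.99, adjusted p = 0.119). Dusp1, a phosphatase that ends MAP kinase signalling, was at 75.6, 71.6 and 56.1 and then 164, 186, 517, 305 and 186 CPM (log2 fold change 2.00, adjusted p = 0.1). Nr4a1, an orphan nuclear receptor, was at 14.3, 13 and 15 and then 39.8, 39.4, 69.3, 139 and 35.9 CPM (log2 fold change 2.20, adjusted p = 0.126). Both lay above the adherent range throughout, with library 59 highest for Dusp1 and library 60 for Nr4a1. Btg2, an antiproliferative gene, had a log2 fold change of 2.29 (adjusted p = 0.186), and Ppp1r15a, which restores translation after stress, one of 1.56 (adjusted p = 0.102). In library 59 the clock gene Per1 reached 504 CPM and Cebpd 121 CPM, against 44.2 to 74.1 and 10.6 to 18.8 CPM in the other 4 neurosphere libraries. The smallest differences were those of Egr3, Srf (0.15), Myc (0.39) and Sgk1 (0.45), whose groups overlapped. Srf encodes the factor that drives many of these genes and was at 46.4, 49.8 and 40.4 and then 52.2, 45.9, 50, 51.5 and 53.7 CPM.

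**Figure D2:**
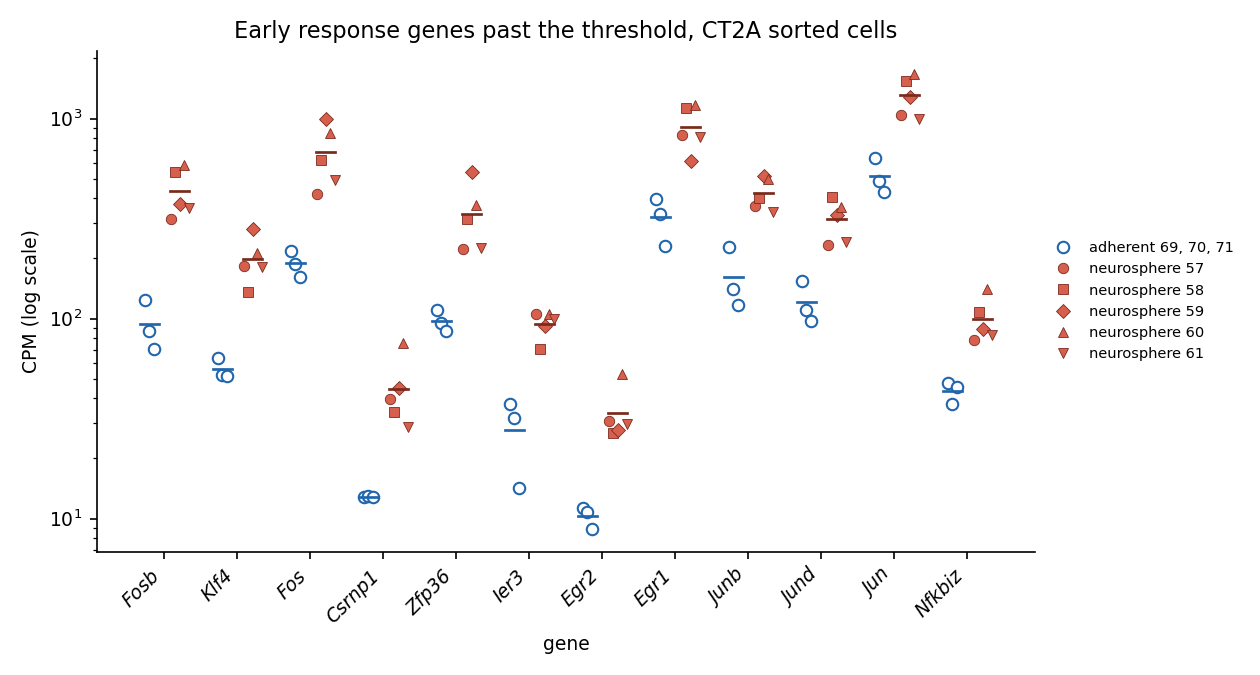
CPM (log axis) of the 12 early response genes that rose, one point per library for the 3 adherent-derived and the 5 neurosphere-derived CT2A libraries, with a short line at each group mean. In each gene all 5 neurosphere points lie above the 3 adherent points.

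Library 60 was the highest neurosphere library for 21 of the 40 tested genes and for 6 of the 12 that rose, and library 59 for 14 and for 4. The heat shock genes, which respond to unfolded protein, gave no call among 15 tested (none at an unadjusted p under 0.05 and none with DESeq2), while library 60 held 985 CPM of Hspa1b and 129 CPM of Hspa1a. Without libraries 59 and 60, the other 3 neurosphere libraries gave 17 of 39 tested early response genes higher (with 1.88% of all genes called in either direction) and a median log2 fold change of 0.99. Leaving out single libraries gave 0 (adherent library 70 or 71, neurosphere library 57 or 61) to 15 (library 60) calls within the list, while the median over the list stayed between 0.99 and 1.54 in all settings tried. With a correction for effective transcript length 5 genes of the list were called.

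Bulk CT2A tumors, which were not sorted, held less Fos, Fosb and Jun messenger RNA than either sorted group in every library. By the study's methods they also differed in the line, which lacked the surface reporter, in the number of cells implanted and in the library kit. The part of these differences in the bulk values was not tested. In 4 bulk libraries Fos averaged 15.1 ± 4.8 TPM, Fosb 3.16 ± 0.384 TPM and Jun 81.6 ± 10.6 TPM (SD). For 15 of the 42 listed genes every bulk library lay below every adherent library, and for 24 below every neurosphere library, against 7 and 2 genes with every bulk library above. Of the 13142 genes tested, bulk libraries were below every adherent library for 16.9% and below every neurosphere library for 8.94%, and above for 27.4% and 21.6%. The part of dissociation and sorting in the difference between the origins was not tested, and the labels give no handling time.

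The promoters of the early response genes are shown for 5 genes that rose, since SRF and CREB sites are what the gene class is known for. Windows reach from 250 bases before to 50 bases after the RefSeq transcription start (RefSeq, GRCm38.p6) and are written 5′ to 3′ on the strand of the gene. The genes themselves lie at chr12:85473890-85477273 (Fos), chr7:19302696-19310051 (Fosb), chr8:84974484-84978718 (Junb), chr7:28376784-28380253 (Zfp36) and chr10:67535475-67542188 (Egr2). In the first 3 sequences, capitals mark the core of the cyclic AMP response element, TGACG on either strand (CGTCA on the other), at 2, 1 and 1 places. These are Fos (chr12:85473640-85473939, plus strand), Fosb (chr7:19309996-19310295, minus strand) and Junb (chr8:84978699-84978998, minus strand).
Fos: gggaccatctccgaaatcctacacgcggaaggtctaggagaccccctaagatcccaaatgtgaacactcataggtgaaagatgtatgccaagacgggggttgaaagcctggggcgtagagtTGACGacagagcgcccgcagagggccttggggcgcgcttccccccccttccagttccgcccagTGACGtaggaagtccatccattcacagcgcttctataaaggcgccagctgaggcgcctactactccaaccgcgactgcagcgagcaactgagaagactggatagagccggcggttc
Fosb: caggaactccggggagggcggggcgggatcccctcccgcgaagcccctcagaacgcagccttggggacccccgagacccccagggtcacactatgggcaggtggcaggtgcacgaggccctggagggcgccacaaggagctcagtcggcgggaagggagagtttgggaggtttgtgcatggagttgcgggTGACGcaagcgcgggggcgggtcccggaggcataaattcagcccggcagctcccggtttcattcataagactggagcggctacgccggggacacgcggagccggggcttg
Junb: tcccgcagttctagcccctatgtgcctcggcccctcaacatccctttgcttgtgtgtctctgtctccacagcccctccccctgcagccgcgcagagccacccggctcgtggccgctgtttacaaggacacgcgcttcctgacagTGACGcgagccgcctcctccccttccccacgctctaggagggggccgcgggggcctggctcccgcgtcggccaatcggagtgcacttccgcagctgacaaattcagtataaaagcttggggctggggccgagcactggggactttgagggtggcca
In the other 2, Zfp36 (chr7:28379179-28379478, minus strand) and Egr2 (chr10:67537620-67537919, plus strand), capitals mark only the CArG box to which SRF binds, once in each. Both windows belong to transcription starts inside the gene coordinates given above, and that of Egr2 was picked from several windows of the gene. Of the 10 genes that rose and had a window, only these 2 held the box.
Zfp36: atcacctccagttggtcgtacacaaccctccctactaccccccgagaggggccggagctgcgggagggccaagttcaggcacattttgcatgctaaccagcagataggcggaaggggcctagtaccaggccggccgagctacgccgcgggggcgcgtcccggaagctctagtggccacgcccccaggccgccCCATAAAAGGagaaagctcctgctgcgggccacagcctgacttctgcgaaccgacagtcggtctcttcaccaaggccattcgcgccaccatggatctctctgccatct
Egr2: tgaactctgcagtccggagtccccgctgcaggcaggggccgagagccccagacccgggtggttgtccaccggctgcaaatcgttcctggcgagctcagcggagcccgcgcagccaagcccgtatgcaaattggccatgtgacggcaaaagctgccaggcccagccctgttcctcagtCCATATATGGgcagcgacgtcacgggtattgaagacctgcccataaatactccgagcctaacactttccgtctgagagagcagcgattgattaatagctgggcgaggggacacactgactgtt

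RefSeq windows were matched for 33 of the 42 early response genes (48 windows), and 23 of these genes (69.7%) held the core TGACG on either strand, against 6228 of all 27025 genes with a window (23%). By windows, the shares were 62.5% and 20.8%. The full element TGACGTCA, which contains the core, was in 5 of the genes (15.2%, against 2.03% of all genes). Of the 10 genes that rose and had a window, 6 held the core (60%) and none the full element. Of the 23 genes of the list that were not called and had a window, 17 held the core (73.9%) and 5 the full element. The core was thus no more frequent in the genes that rose than in the rest of the list. The CArG box was in 3 genes (9.09% against 1.81%), the AP-1 motif TGANTCA in 1 (3.03% against 8.97%) and the E-box CACGTG in 9 (27.3% against 8.09%). Among the 34 astrocyte genes with a window, 5 held the core (14.7%), 2 the AP-1 motif (5.88%) and none the full element or the CArG box. These matches describe letters in a window and not binding.

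The astrocyte genes went the other way. Of 40 listed, 35 were tested, and 7 fell and none rose, against 0.19% of all tested genes that fell. Fold changes were below 0 for 26 and above 0 for 9, 21 had an unadjusted p under 0.05 downward (5.54% of all genes) and 4 upward, and 21 had no overlap with every neurosphere library lower (5.68% of all genes). The median log2 fold change was -1.90, from -4.29 to 1.66. With DESeq2 17 of the list were lower and none higher (2.3% of all genes in either direction). For 7 of the 35, the minimum count was reached through the adherent group only, as for 208 of all 13142 genes tested. This favours lower neurosphere values among the genes tested. The called genes Slc6a11, Slc4a4, Ntsr2 and Gpr37l1 are among them, so the count of falls is not independent of the minimum.

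Transporters made up 3 of the 7 that fell. Slc1a3 lies at chr15:8634124-8710764, and Ndrg2, described next to the transporters, at chr14:51905271-51914158 (GRCm38). Slc1a3, the glutamate transporter GLAST, was at 17.9, 32.7 and 27.8 and then 2.54, 1.21, 1.71, 5.12 and 2.86 CPM. No neurosphere library came near the adherent range, and library 60 was the highest of the 5 (log2 fold change -3.29, SE 0.40, adjusted p = 0.0247). Slc6a11, the GABA transporter GAT-3, was at 5.07, 9.18 and 6.09 and then 0.308, 0.0711, 0.284, 0.867 and 0.136 CPM. It was below 1 CPM in all 5 neurosphere libraries, with library 60 highest (log2 fold change -4.29, SE 0.56, adjusted p = 0.0254). Slc4a4, a sodium bicarbonate cotransporter, was at 4.25, 7.99 and 6.69 and then 0.694, 0.213, 0.284, 1.56 and 0.273 CPM (log2 fold change -3.35, SE 0.57, adjusted p = 0.0493). Slc1a2, the glutamate transporter GLT-1 and the main one of mature astrocytes, was at 85.2, 190 and 161 and then 3.24, 0.995, 1.63, 23.4 and 10.8 CPM. The groups did not overlap, but the neurosphere values ranged from 0.995 to 23.4 CPM and the gene did not pass (log2 fold change -4.22, adjusted p = 0.105). The sodium pump subunit Atp1b2 was likewise not past the threshold, at -3.14 (adjusted p = 0.102).

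Ndrg2, a cytoplasmic protein abundant in astrocytes, had the highest adherent TPM of the 7 and was at 47.5, 48.8 and 58.3 and then 5.78, 2.63, 6.61, 11.4 and 7.64 CPM. All 5 neurosphere libraries were far below the adherent range, with library 60 highest (log2 fold change -2.93, SE 0.34, adjusted p = 0.0247). S100b, a calcium-binding protein, was at 9.32, 9.93 and 11.9 and then 0.539, 0.853, 1.71, 3.12 and 1.77 CPM (log2 fold change -2.71, SE 0.45, adjusted p = 0.0492). The G protein-coupled receptors Ntsr2 and Gpr37l1 were at 2.48, 1.62 and 3.19 and then 0.0771, 0.142, 0.213, 0.347 and 0 CPM and at 2.24, 4.32 and 4.49 and then 0.462, 0.213, 0.284, 0.867 and 0.409 CPM, respectively. Both were low in all libraries and fell without overlap (Ntsr2 log2 fold change -3.80, SE 0.57, adjusted p = 0.0434, Gpr37l1 log2 fold change -3.03, SE 0.47, adjusted p = 0.0482). Gfap itself was at 23.5, 71.6 and 44.7 and then 3.47, 1.07, 4.55, 23.4 and 8.73 CPM. Library 60 nearly reached the lowest adherent library, and the difference did not pass (log2 fold change -2.51, SE 0.76, adjusted p = 0.254). Aqp4 (log2 fold change -2.19), Aldoc (-1.47) and Aldh1l1 (-0.80) had no overlap and did not pass either.

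Other genes of the list were not lower. Sox9 and Nfia, transcription factors of glial specification, had log2 fold changes of 0.62 and 0.72, Nfib 0.21, and Vim, the filament protein of immature and reactive glia, 0.35. The metallothioneins Mt1 and Mt2 were at 1.52 and 1.66, with libraries 57 and 59 highest, and none of these passed. Gja1, the main astrocyte connexin, was at 223, 205 and 226 and then 267, 266, 69.1, 217 and 270 CPM. The groups overlapped, and library 59 was the lowest of the 8. Apoe, a lipid carrier of astrocytes and macrophages, reached 4470 CPM in library 59, the library with the highest macrophage marker level, against 616 to 1190 CPM in the other 4 neurosphere libraries.

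**Figure D3:**
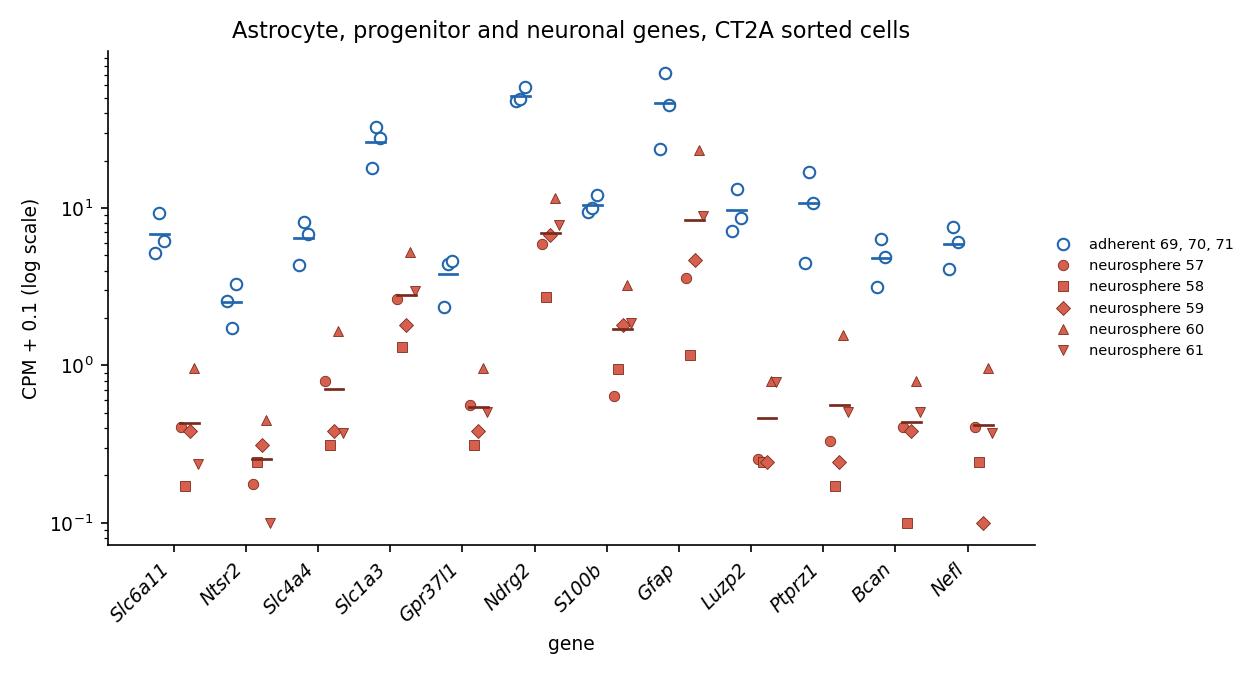
CPM + 0.1 (log axis) of 12 astrocyte and other neural genes in the 3 adherent-derived and the 5 neurosphere-derived CT2A libraries, one point per library and a short line at each group mean. Gfap is the only gene of the 12 that did not pass the test, and library 60 is the highest neurosphere point in all 12.

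Genes listed for other neural cells gave few calls, all of them lower. Of 12 tested oligodendrocyte progenitor genes (20 listed), 3 fell, against 0.19% of all tested genes: Luzp2, Ptprz1 and the matrix proteoglycan gene Bcan. Luzp2 was at 7.08, 13.1 and 8.48 and then 0.154, 0.142, 0.142, 0.694 and 0.682 CPM (log2 fold change -4.79, SE 0.53, adjusted p = 0.0247). Ptprz1, a receptor phosphatase of glial progenitors, was at 4.36, 16.8 and 10.7 and then 0.231, 0.0711, 0.142, 1.47 and 0.409 CPM (log2 fold change -4.53, SE 0.74, adjusted p = 0.0492). Bcan was at 3.07, 6.26 and 4.79 and then 0.308, 0, 0.284, 0.694 and 0.409 CPM (log2 fold change -3.80, SE 0.63, adjusted p = 0.0492). In each of the 3, the highest neurosphere library was below the lowest adherent one. The list also holds genes that astrocytes express. Of the 12 tested, 5 reached the minimum count through the adherent group only, which favours lower neurosphere values. All 3 called genes are among these 5. Of 9 tested neuron markers, Nefl, a neurofilament chain, fell and none rose, and the median of the 9 was a log2 fold change of -2.04. Of these 9, 4 likewise reached the minimum count through the adherent group only, Nefl among them. Nefl was at 4.01, 7.45 and 5.99 and then 0.308, 0.142, 0, 0.867 and 0.273 CPM (log2 fold change -4.19, SE 0.67, adjusted p = 0.0492). Snap25, a synaptic membrane protein, was at 6.37, 10.5 and 9.28 and then 0.231, 0.427, 0.213, 3.99 and 0.409 CPM. It was below the adherent range in every neurosphere library and did not pass, and Tubb3 and Stmn2 had fold changes above 0 (0.61 and 0.66). Of 7 tested oligodendrocyte markers none passed with edgeR or DESeq2 (1 was lower at an unadjusted p under 0.05). The myelin gene Mbp was at 127, 134 and 189 and then 8.25, 18.4, 23.9, 160 and 16.8 CPM. Library 60 lay inside the adherent range and the other 4 neurosphere libraries far below it. Mobp, a further myelin gene, was at 64.9, 73.5 and 90.5 and then 2.54, 10.6, 7.03, 62.7 and 7.23 CPM, with library 60 close to the adherent range.

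Summed over 10 oligodendrocyte markers, 4 neurosphere libraries held 30.3 to 56.1 CPM and library 60 held 321 CPM, against 249 to 368 CPM in the adherent libraries and 862 to 2731 CPM in bulk tumors. The mean level of 10 neuron markers, in log2(CPM + 1), was 1.92 to 2.74 in neurosphere, 2.88 to 3.44 in adherent and 5.88 to 8.01 in bulk libraries. Their summed CPM were 164 to 222, 180 to 240 and 692 to 3107. No gene of either list was at 0 in all libraries of a group. The mean level of the 40 astrocyte genes had the same order, 2.91 to 3.71, 4.26 to 4.60 and 5.64 to 6.72. Their summed CPM, which the genes with the most reads dominate, did not, at 4927 to 9378, 5074 to 5398 and 5957 to 9145. In TPM, 31 of 40 astrocyte genes, all 10 neuron markers and all 10 oligodendrocyte markers were higher in every bulk library than in every adherent library (27.4% of the 13142 genes tested), as for Gfap (552 ± 239 TPM in bulk tumors, 31.3 ± 16.3 in adherent and 6.77 ± 7.35 in neurosphere libraries) and Slc1a3 (83.2 ± 35, 11.3 ± 3.04 and 1.43 ± 0.747). Among the other markers, endothelial levels were 2.06 to 3.14 in neurosphere and 2.51 to 3.39 in adherent libraries, pericyte levels 2.46 to 3.45 and 3.33 to 3.65, microglia levels 4.06 to 5.62 and 4.52 to 5.09, and macrophage levels 5.04 to 6.99 and 5.45 to 6.47, with no gene of the 4 lists called by edgeR (4 lower at an unadjusted p under 0.05) and 1 by DESeq2, Rgs5. Whether astrocyte genes were lower within tumor cells, or host neural cells were fewer after the sort, was not tested.

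**Figure D4:**
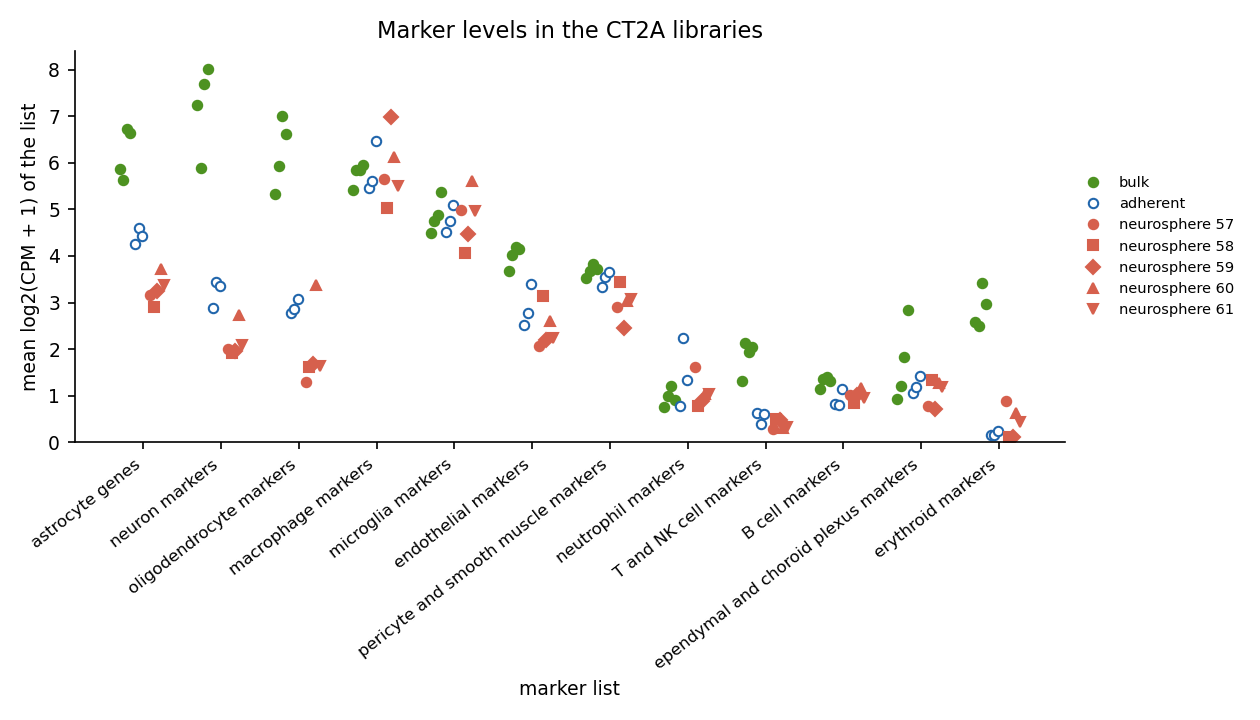
Mean log2(CPM + 1) of each marker list in every neurosphere-derived, adherent-derived and bulk CT2A library. Neuron, oligodendrocyte and astrocyte levels are highest in the bulk libraries, and library 60 is the neurosphere library nearest to the adherent ones for oligodendrocyte markers.

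Further neural genes passed the rule for the 12 highest and lowest folds. Ntrk2, the receptor of BDNF, of which astrocytes carry a truncated form, was at 9.44, 19.6 and 17.5 and then 0.539, 0.995, 1.42, 3.21 and 1.36 CPM (log2 fold change -3.37, SE 0.47, adjusted p = 0.0337). Abat, which degrades GABA, was at 9.32, 10 and 15.2 and then 0.462, 0.284, 0.924, 2.08 and 0.682 CPM (log2 fold change -3.69, SE 0.50, adjusted p = 0.0328). Abat reached the minimum count through the adherent group only, which favours a lower neurosphere value. Baalc and Sfxn5, a brain-enriched membrane protein and a mitochondrial carrier, fell by smaller amounts (Baalc log2 fold change -1.82, SE 0.30, adjusted p = 0.0492, Sfxn5 log2 fold change -1.30, SE 0.19, adjusted p = 0.0426). The rule names only genes whose groups did not overlap. Without libraries 59 and 60, 18 of 37 tested astrocyte genes were lower and none higher, where 1.88% of all genes were called in either direction. Without single libraries there were 0 (adherent library 70 or 71, neurosphere library 57 or 61) to 15 (library 60) calls in the list, and its median stayed between -2.08 and -1.48 in all settings tried.

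The same contrast was available for GL261 (3 neurosphere and 4 adherent libraries), where 1321 of 13824 genes rose (9.56%) and 469 fell (3.39%). Of the 40 early response genes 13 rose there and none fell, with a median log2 fold change of 0.75. Egr2, Ier3, Junb, Nfkbiz and Zfp36 rose in both lines, and the other 8 in GL261 were Btg2, Cebpb, Dusp1, Gadd45b, Ier5, Plk2, Plk3 and Sgk1. The difference between the lines, tested as an interaction over the 15 sorted libraries, was called for 944 genes (6.83%), 147 of them with the larger log2 change in CT2A (1.06%) and 797 with the smaller (5.77%). Among early response genes it was larger in CT2A for Jun (interaction 1.15, SE 0.32, adjusted p = 0.0413) and Jund (interaction 1.57, SE 0.45, adjusted p = 0.0495) and smaller for Sgk1 (interaction -1.45, SE 0.32, adjusted p = 0.0165). For Zfp36 the log2 fold changes were 1.78 in CT2A and 2.00 in GL261, for Fos 1.84 and 0.66, and for Fosb 2.21 and 0.93, with no call of a difference. In GL261 all 13 macrophage markers rose with neurosphere origin, against 0 of 13 in CT2A by edgeR (median 0.30, none at an unadjusted p under 0.05 and none by DESeq2), and 8 of 13 were called in the interaction. The part of those cells in the GL261 values was not tested.

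Astrocyte genes differed between the lines. In GL261 none of 35 fell, Apoe and Cst3 rose, and the median was -0.22. The interaction was called for 10 of the list, all with the lower change in CT2A (5.77% of all genes in this direction). Slc1a3 had log2 fold changes of -3.29 in CT2A and 0.52 in GL261 (interaction -3.84, SE 0.72, adjusted p = 0.00921), Ndrg2 -2.93 and -0.45 (interaction -2.50, SE 0.49, adjusted p = 0.0101), and S100b -2.71 and -0.52 (interaction -2.22, SE 0.48, adjusted p = 0.015). The proteoglycan gene Bcan (interaction -2.79, SE 0.57, adjusted p = 0.0116) and the neurofilament gene Nefl (interaction -3.69, SE 0.95, adjusted p = 0.0312) differed likewise.

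**Figure D5:**
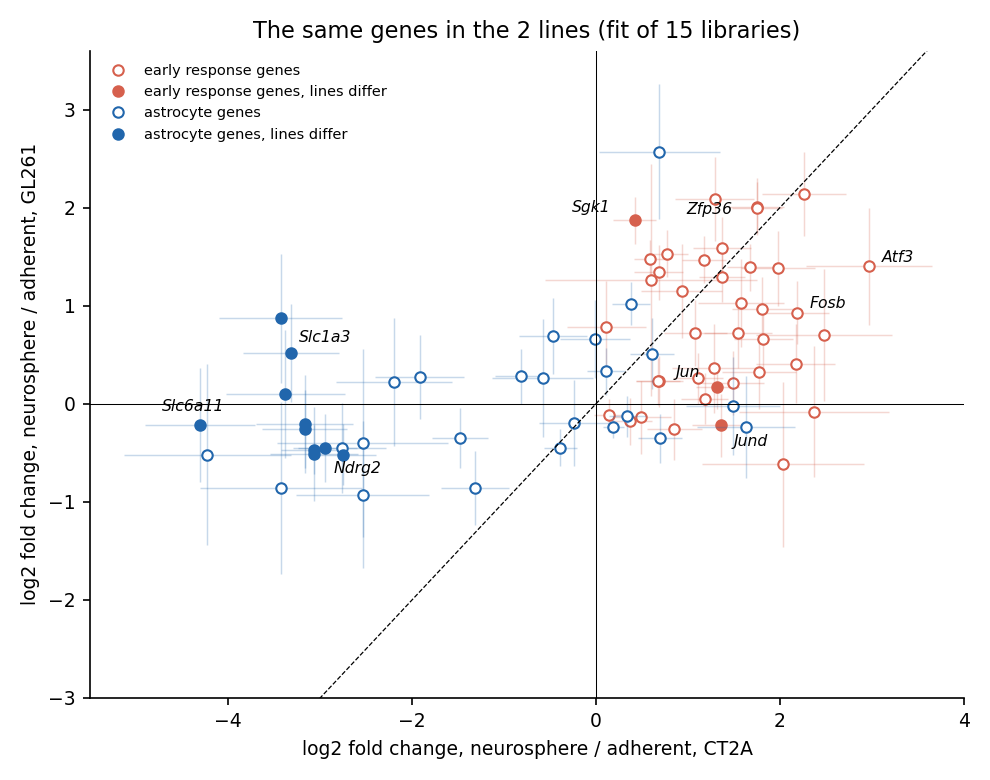
Log2 fold change (neurosphere minus adherent) of the early response and astrocyte genes in CT2A, on the horizontal axis, against the same contrast in GL261, on the vertical axis, from the fit of 15 sorted libraries, with standard errors as bars and filled points where the difference between lines had an adjusted p under 0.05. Most astrocyte genes have CT2A values below 0, the 10 filled ones among them, while Apoe and Cst3 are called upward in GL261, and most early response genes lie above 0 on both.

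NF-kB and cytokine genes also differed between lines. Of 36 tested, Nfkbia alone was called higher in CT2A. Log2 fold changes there were above 0 for 30 (55.1% of all genes) and below 0 for 6, with a median of 0.34. An unadjusted p under 0.05 upward was reached by 14 (7.7% of all genes). In GL261 24 rose (median 2.73, with 9.56% of all genes rising), and the interaction was lower in CT2A for 13 (5.77% of all genes). The macrophage markers, all 13 of which rose in GL261 and 8 of which were lower in CT2A by the interaction, moved with these genes, and their part was not tested. Ccl2, a monocyte chemokine, had log2 fold changes of 1.04 and 3.87 (interaction -2.84, SE 0.49, adjusted p = 0.00686), and the adhesion receptor gene Vcam1 0.11 and 2.98 (interaction -2.90, SE 0.53, adjusted p = 0.00883).

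Trp53i11, a p53-inducible gene in no list, was at 40.2, 37.6 and 53.3 and then 165, 144, 248, 141 and 122 CPM. It was named by the rule for the highest and lowest folds, which requires groups that do not overlap (log2 fold change 1.91, SE 0.24, adjusted p = 0.0254). The change was larger than in GL261 (interaction 2.07, SE 0.47, adjusted p = 0.0186). Chosen after their values were seen, Sdk1, a synaptic adhesion gene, was at 1.65, 2.37 and 1.7 and then 12.8, 4.98, 9.95, 12 and 8.05 CPM (Sdk1 log2 fold change 2.32, SE 0.36, adjusted p = 0.0482), and Nid2, a basement membrane protein, at 14.4, 15.8 and 13 and then 24.1, 30.4, 33, 27.8 and 26.7 CPM (Nid2 log2 fold change 0.98, SE 0.15, adjusted p = 0.0482). Both were higher in every neurosphere library.

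The other pathways listed gave no call with edgeR in CT2A. These were heat shock genes (15 tested), ERK feedback genes (15), neural stem and progenitor genes (18), Notch genes (21), collagen chains (30), mesenchymal and matrix genes (42), TGF-beta and BMP genes (25), WNT genes (31), hypoxia and glycolysis genes (34), cholesterol synthesis genes (24), proliferation genes (38), ATF4 targets (24), p53 targets (17), interferon-stimulated genes (48), antigen presentation genes (20), Hox genes (21) and guidance genes (35). Medians over these lists lay between -0.12 and 0.47 on the log2 scale. Over the 17 lists, 41 of 458 entries were higher (8.95%, against 7.7% of all genes tested) and 21 lower (4.59%, against 5.54%) at an unadjusted p under 0.05. DESeq2 called 5 of the 458 entries higher and 7 lower, where it called 2.3% of all genes in either direction. Nothing is read from that count. The receptor tyrosine kinase list had 1 call of 34, Ntrk2.

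The members with the most reads in each uncalled list, up to 2 a list, had log2 fold changes between -0.63 and 0.70. Cycle genes had log2 fold changes of 0.09 for Ccnd1, 0.22 for Pcna and -0.11 for Top2a. Matrix genes were at 0.11 for Col3a1, -0.06 for Col4a1, 0.04 for Fn1 and 0.01 for Bgn, and the chaperone genes Hsp90ab1 and Hspa8 were at 0.22 and -0.13. Progenitor and Notch genes were at 0.16 (Sox4), -0.35 (Nes), -0.06 (Notch2) and -0.30 (Jag1). Notch2 and Jag1 encode a receptor and a ligand of the same pathway. For BMP, WNT and ERK feedback genes the values were -0.27 (Bmpr2), -0.35 (Smad5), 0.69 (Apcdd1), 0.24 (Dkk3) and -0.63 (Spred1). Spred1 is an inhibitor of ERK signalling and Bmpr2 a BMP receptor. Metabolic genes were at 0.51 (Pkm), 0.70 (Gapdh), 0.25 (Srebf2), 0.50 (Phgdh) and 0.48 (Slc3a2). Interferon, antigen presentation and p53 genes were at 0.21 (Ifitm3), 0.33 (Gbp2), 0.17 (B2m), 0.35 (H2-D1), -0.28 (Zmat3) and 0.16 (Mdm2). B2m and H2-D1 together form a class I MHC molecule. Hox and guidance genes were at 0.08 (Hoxc10), 0.34 (Hoxc11), -0.40 (Unc5b) and -0.00 (Nrp2). None of those named here had an adjusted p under 0.05 by edgeR. The lowest was 0.21, for Spred1, which DESeq2 did call lower.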

How the data were processed

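RNA was sequenced from 23 tumor samples, of which 8 were compared here and 7 GL261 sorted and 4 CT2A bulk libraries served as reference. The deposited values are estimated counts, TPM and effective lengths per transcript, which the authors made with Salmon on a mouse mm10 transcriptome, and the submitters' processing notes also name DESeq2 1.30.1, STAR 2.7.7a and RSEM 1.3.3. Estimated counts were summed per gene and rounded, and deposited TPM values were summed per gene. Genes with a mean scaled count over 10 in the 8 libraries went into edgeR 4.0.16 (R 4.3.3), whose robust quasi-likelihood test was used with TMM scaling and a Benjamini-Hochberg threshold of 0.05. DESeq2 1.42.0, the tool of the study, was an alternative, as were other scalings, minimum counts, an effective length offset, fits with more groups and leaving out each library. The scripts were tested on simulated data. The differences between lines come from a fit of 15 sorted libraries. CPM are TMM-scaled over the 8 libraries, marker levels over all 23 (pseudocount 1). Bulk libraries were set beside sorted ones in TPM or marker level only. The labels and the study name different library kits, and counting by strand is not given in the sources used here, so overlapping genes cannot be told apart. Replicate libraries differed by more than sampling noise. Replicates are samples of separate label numbers, and p-values measure the spread between them.

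Genes named are the 12 highest and 12 lowest called log2 fold changes with a CPM of at least 10 in a group and no overlap between the groups. Members of the lists are named as well, and a few genes named as chosen after their values were seen. The comparison, the members and the gene lists were chosen with earlier results of these data known. Promoter windows come from RefSeq (GRCm38.p6) and leave out chromosome 18. A few results that the rule would name are not reported here.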

Additional observations from a re-analysis of the deposited data

Results flagged for a closer look

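Within the neurosphere group, 4 checks set library 60 apart from the other 4 libraries by Dixon's test. Among the 44 called genes this held for Egr2, at 52.6 CPM in library 60, and for Ptprz1, at 1.47 CPM. Among 13 marker and gene list levels it held for oligodendrocyte markers, at 3.37 on the log2(CPM + 1) scale, and for neuron markers, at 2.74. Chance alone sets apart about 1 in 20 such groups, so 2 of 44 genes is near what chance gives. The 2 of 13 levels are a larger share, but 13 levels are few and both come from library 60.

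The effect of neurosphere origin differed between CT2A and GL261, by the interaction term of edgeR over the 15 sorted libraries, for 20 of 42 called genes that could be tested. Over all 13824 genes tested the share was 6.83%, but these 42 were chosen for a change in CT2A, which is part of the same difference, so nothing is read from the count. The change was larger in CT2A for Trp53i11 (difference in log2 fold change 2.07, adjusted p = 0.0186), Jund (1.57, adjusted p = 0.0495), Jun (1.15, adjusted p = 0.0413) and Gm10241 (9.59, adjusted p = 0.0117). Gm10241 is a processed pseudogene, whose reads can be shared with its parent gene, and its value is uncertain. Of the astrocyte list, the change was lower in CT2A for Slc6a11 (-4.09, adjusted p = 0.0116), Slc1a3 (-3.84, adjusted p = 0.00921), Slc4a4 (-3.47, adjusted p = 0.0344), Gpr37l1 (-2.60, adjusted p = 0.00665), Ndrg2 (-2.50, adjusted p = 0.0101) and S100b (-2.22, adjusted p = 0.015). Among other neural genes it was lower for Ntrk2 (-4.37, adjusted p = 0.00814), Luzp2 (-4.30, adjusted p = 0.0172), Ptprz1 (-4.06, adjusted p = 0.0077), Nefl (-3.69, adjusted p = 0.0312), Abat (-3.55, adjusted p = 0.00961), Bcan (-2.79, adjusted p = 0.0116) and Sfxn5 (-1.62, adjusted p = 0.0208). Fam81a (-4.09, adjusted p = 0.0175), Ppp1r1b (-4.05, adjusted p = 0.00921) and Mmd2 (-3.45, adjusted p = 0.00632) were named after their values were seen.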

How the results depend on the processing

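The 44 calls in CT2A came to 141 when the 4 sorted groups shared an estimate of the spread, 302 with DESeq2, 87 without a minimum count, 25 with an offset for effective length and 246 without neurosphere libraries 59 and 60, an alternative chosen after seeing the data. Leaving out single libraries gave 0 to 188 calls. The count was 0 without adherent library 70 or 71 or neurosphere library 57 or 61 by edgeR (894, 766, 1399 and 1355 genes at an unadjusted p under 0.05, lowest adjusted p 0.159, 0.15, 0.0719 and 0.0557), 13 without adherent library 69, 12 without neurosphere library 58 and 34 without 59. Early response calls, 12, came to 23 with DESeq2, 5 with the length offset and 0 to 15 without single libraries. Astrocyte calls, 7, came to 13 with 4 groups, 17 with DESeq2, 12 with all 6 groups, 18 without libraries 59 and 60 and 0 to 15 without single libraries. The 944 differences between lines came to 1541 with DESeq2 and 251 to 1251 without single libraries (lowest without adherent CT2A library 71). The 1790 calls in GL261 came to 1137 with a minimum log2 fold change of 1 and 907 to 2378 without single libraries (lowest without neurosphere library 89). The cause of these changes was not tested. Every called gene of CT2A kept its direction in every alternative in which it was tested, and no result reversed. No paired analysis was possible because the groups share no replicate number. With 3 adherent libraries and adjusted p-values near the threshold, a gene that was not called is not shown to be level, and genes under 1 CPM rest on at most 15 reads a library.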

Other observations

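The 13 messenger RNAs of the mitochondrial genome, which encode subunits of the respiratory chain, were grouped after the data were seen. All 13 had log2 fold changes below 0, from -0.08 to -1.19, where 5906 of all 13142 genes tested were below 0. Of the 13, 2 fell (0.19% of all genes tested), mt-Nd4 and mt-Nd4l, both complex I subunits. Since the group was made from these values, nothing is read from its counts. mt-Nd4 was at 2052, 2402 and 2851 and then 1195, 985, 1017, 885 and 1259 CPM (log2 fold change -1.19, SE 0.16, adjusted p = 0.0303), in the order adherent libraries 69 to 71 and neurosphere libraries 57 to 61. mt-Nd4l was at 431, 475 and 543 and then 255, 207, 201, 176 and 281 CPM (log2 fold change -1.11, SE 0.16, adjusted p = 0.0426). Neither overlapped between the origins, but their transcripts overlap in the genome, so the pair is not independent. Mitochondrial messenger RNAs took 1.68% to 2.41% of the reads in neurosphere and 3.02% to 3.63% in adherent libraries. In GL261 11 of the 13 fell (3.39% of all genes), with a median of -0.91.

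Among hypoxia and glycolysis genes 31 of 34 had log2 fold changes above 0 (55.1% of all genes tested), 5 of them at an unadjusted p under 0.05 (7.7% of all genes), with a median of 0.47 and no call by edgeR or DESeq2. Of 24 cholesterol synthesis genes, 19 were above 0 and 6 of them had an unadjusted p under 0.05, again with no call by either tool.

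Rps12l1, a processed pseudogene of a ribosomal protein gene, was at 16.6, 57.8 and 32.7 and then 0, 0, 0, 0 and 0 CPM. The 0 in all 5 neurosphere libraries is uncertain, since its reads can be assigned to the parent gene, and no fold is given. Gm20594 was at 120, 165 and 151 and then 66, 57.6, 97.5, 66 and 69.4 CPM (log2 fold change -1.03, SE 0.17, adjusted p = 0.0493).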
